A study of Mus musculus with 6 samples.

Results

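The matrix proteases and tissue inhibitors described here are the ADAMTS proteases, the ADAMTS-like proteins, the matrix metalloproteinases (MMPs) and the tissue inhibitors of metalloproteinases (TIMPs) of the fetal mouse heart. They were chosen by gene name and by their summed count, as the protein-coding rows whose symbol begins with Adamts, or with Mmp or Timp and a digit, with at least 60 counts over the 6 libraries. A total of 42 of 31529 genes met both conditions, comprising 18 ADAMTS proteases, 5 ADAMTS-like genes, 15 MMPs and 4 TIMPs. The level summed over both stages therefore chose the members, and the rule made no use of the difference between stages. Near the threshold, a high level in 1 stage can still carry a gene over it. Mmp25 had 25, 4 and 16 counts at E16.5 and 11, 0 and 5 counts at E18.5. Of 44 rows with such a name, Mmp21 and Adamts13 lay just outside with 6 and 32 counts, and Mmp25, Adamts18, Mmp13 and Mmp12 lay just inside with 61, 80, 94 and 117 counts. Mmp3, Mmp7, Mmp10, Mmp1a, Mmp1b, Mmp20 and Mmp27 were not analysed here.

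Polyadenylated RNA was sequenced from hearts of wild-type mice of the outbred ICR stock on embryonic days 16.5 and 18.5 (E16.5 and E18.5), with 3 libraries for each day. No allele, agent or diet is named for either group, and both groups share stock, genotype and tissue. The series as a whole concerns the metabolism of fetal organs late in gestation, and the comparison asks which transcripts of the heart differ between these 2 days. The libraries are called biological replicates, and whether each came from 1 heart or from a pool is not stated in the sources used, so p-values measure only the spread between these libraries.

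The libraries held between 61443414 and 77237333 estimated counts. Throughout, the 3 values of a stage follow the order of its replicate numbers 1, 2 and 3. The share of mitochondrial genes was 41.4%, 19.9% and 35.0% for the E16.5 libraries and 33.5%, 26.7% and 25.2% for the E18.5 libraries. The log2 levels of E16.5 replicate 2 correlated at 0.953 to 0.964 with E18.5 libraries but at 0.946 and 0.947 with its own stage. E16.5 replicates 1 and 3 were no closer to each other, at 0.948, and correlated at 0.937 to 0.948 with E18.5 libraries. Xist was high in E16.5 replicates 2 and 3 and in E18.5 replicate 3 only, so the libraries are not balanced for sex. The 7 cardiomyocyte markers, such as Tnnt2 and Myh6, were expressed in every library. Their summed level was 26525 to 35858 counts scaled to a common library size (CPM) at E16.5 and 30854 to 38414 CPM at E18.5. Thymus markers summed to at most 0.558 CPM. Lung epithelium markers were present in every library, at 90.9 to 158 CPM at E16.5 and 85.7 to 153 CPM at E18.5. Liver markers summed to 31.9 to 79.4 CPM and 19.1 to 93.6 CPM. The source of these transcripts was not tested. Across all 19959 genes tested, 30 passed edgeR's quasi-likelihood test at an adjusted p under 0.05.

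MMPs and ADAMTS proteases are zinc endopeptidases that are made as inactive proenzymes and act at the cell surface or in the extracellular matrix. MMPs cleave collagens, laminins and many signalling proteins. ADAMTS proteases carry thrombospondin repeats and fall into groups that trim procollagens, cleave large proteoglycans such as versican, or act on fibrillin microfibrils, while ADAMTS-like proteins share the repeats and lack the protease domain. TIMPs bind the active site of MMPs and, in the case of Timp3, of several ADAMTS proteases, and in the developing heart the balance of these activities shapes the trabeculae, the valves and the interstitial matrix.

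Most members were expressed at low or moderate levels. Levels of different genes are compared as deposited FPKM (fragments per kilobase, a level that takes account of transcript length and library size), averaged over 6 libraries. A total of 5 members reached a mean of 10 FPKM or more, 18 lay from 1 to under 10 FPKM, and 19 lay under 1 FPKM. Adamtsl5 led with a mean of 17.9 FPKM and a range of 13.8 to 21.7, followed by Mmp15 at 17.8, Adamts10 at 13.6, Adamts6 at 13.2 and Mmp23 at 11.5 FPKM. Timp3, Timp2 and Mmp2 came next with 9.30, 8.24 and 8.23 FPKM. Adamts18, Mmp25 and Mmp12 were the lowest, at 0.0170, 0.0235 and 0.0344 FPKM. Every neighbouring pair in this order overlapped in range over the 6 libraries, so the order of neighbours is not resolved beyond their spread.

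**Figure D1:**
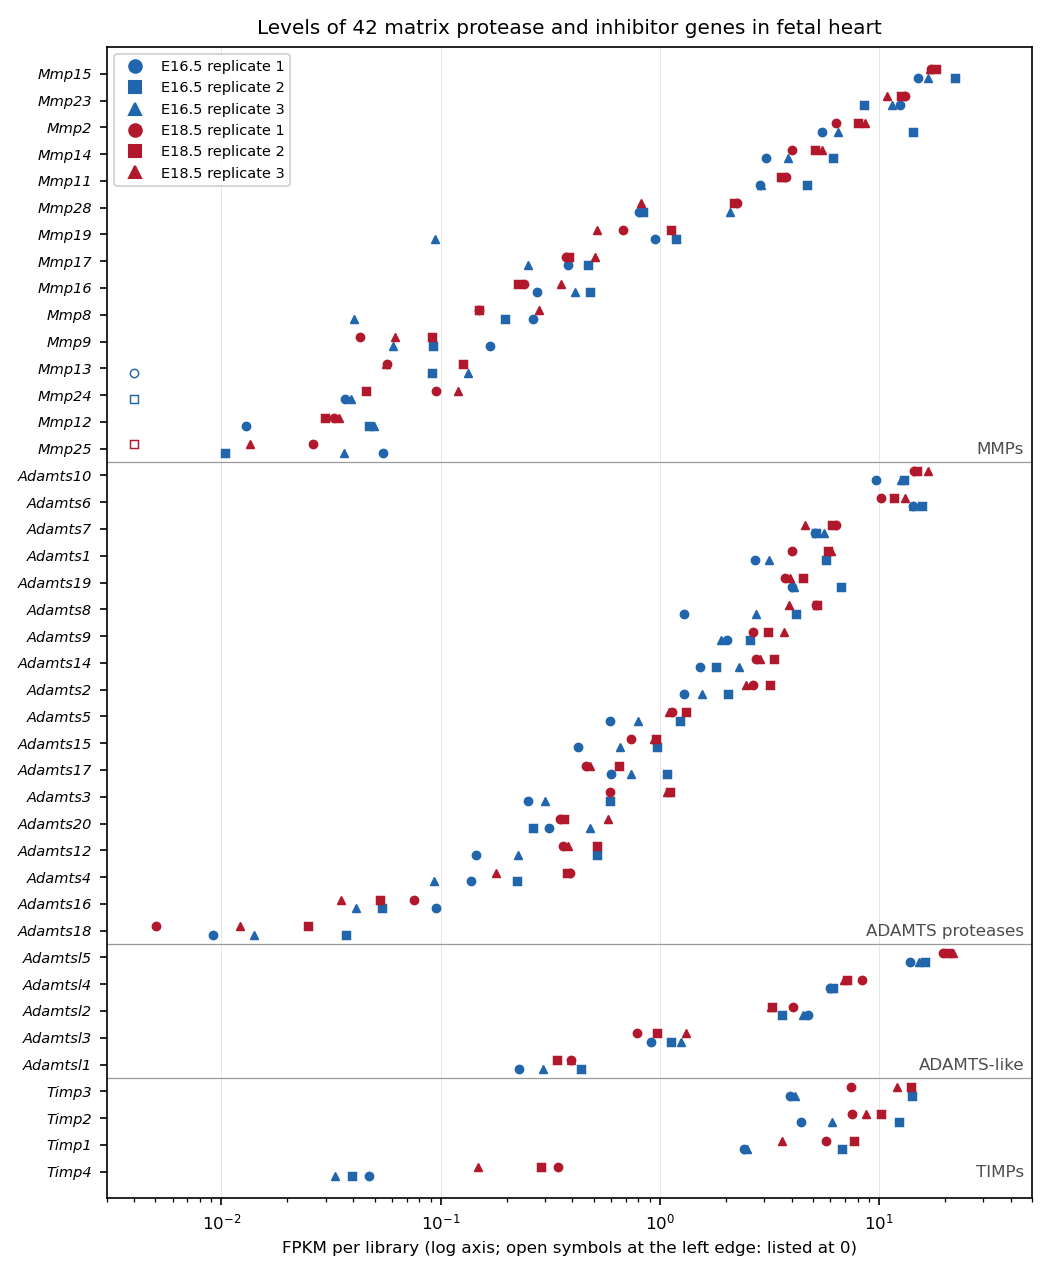
Deposited FPKM (log axis) of the 42 genes in each of the 6 libraries, grouped by family and ordered by mean level, with E16.5 in blue, E18.5 in red and open symbols for values listed at 0. Adamtsl5 and Mmp15 have the highest means, 17.9 and 17.8 FPKM, and the E16.5 and E18.5 symbols overlap for most genes.

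Few genes supplied most of each family's summed FPKM. Mmp15, a membrane-anchored MMP, made up a mean of 36.1% of the MMP sum, and Mmp23 and Mmp2 another 24.0% and 16.4%. Adamts10 and Adamts6 made up 23.9% and 23.8% of the sum over the ADAMTS proteases. The share of Adamts6 was 32.1%, 25.3% and 27.6% in the E16.5 libraries and 18.3%, 18.5% and 21.2% in the E18.5 libraries. Its share was thus lower in every E18.5 library than in any E16.5 library. Adamtsl5 made up 59.3% of the ADAMTS-like sum.

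No single member passed the test between stages across all genes. In the edgeR quasi-likelihood test with Benjamini-Hochberg adjustment, 0 of 42 members had an adjusted p under 0.05, against 0.150% of all genes tested. At an unadjusted p under 0.05 there were 7 members higher at E18.5 and 3 lower, against 9.53% of all genes in either direction. DESeq2 called 3 members (Timp4, Adamts3 and Adamts2) against 1.58% of all genes, and limma on log2 FPKM called 0. All 42 members passed the filter on low counts. Of these, 27 were higher and 15 lower at E18.5, with a median log2 difference of 0.12, while 49.8% of all genes tested were higher and their median was -0.00.

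In 12 members the 3 libraries of one stage all lay above the 3 of the other, against 16.5% of all genes tested. The 8 that were higher at E18.5, against 8.45% of all genes, were Timp4, Adamts2, Adamts3, Adamts14, Adamts8, Adamts9, Adamts15 and Adamtsl5. The 4 that were lower, against 8.02%, were Adamts17, Adamts6, Adamts19 and Mmp16. Apart from Timp4 and Mmp16, all are ADAMTS proteases or ADAMTS-like genes. Here and below, levels in single libraries are CPM scaled by the trimmed mean of M-values (TMM), unless FPKM is given. The reason is that FPKM is scaled to the fragments of a library, and the mitochondrial share varied between libraries. In bulk tissue, fewer cells of a type and less RNA per cell cannot be told apart.

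**Figure D2:**
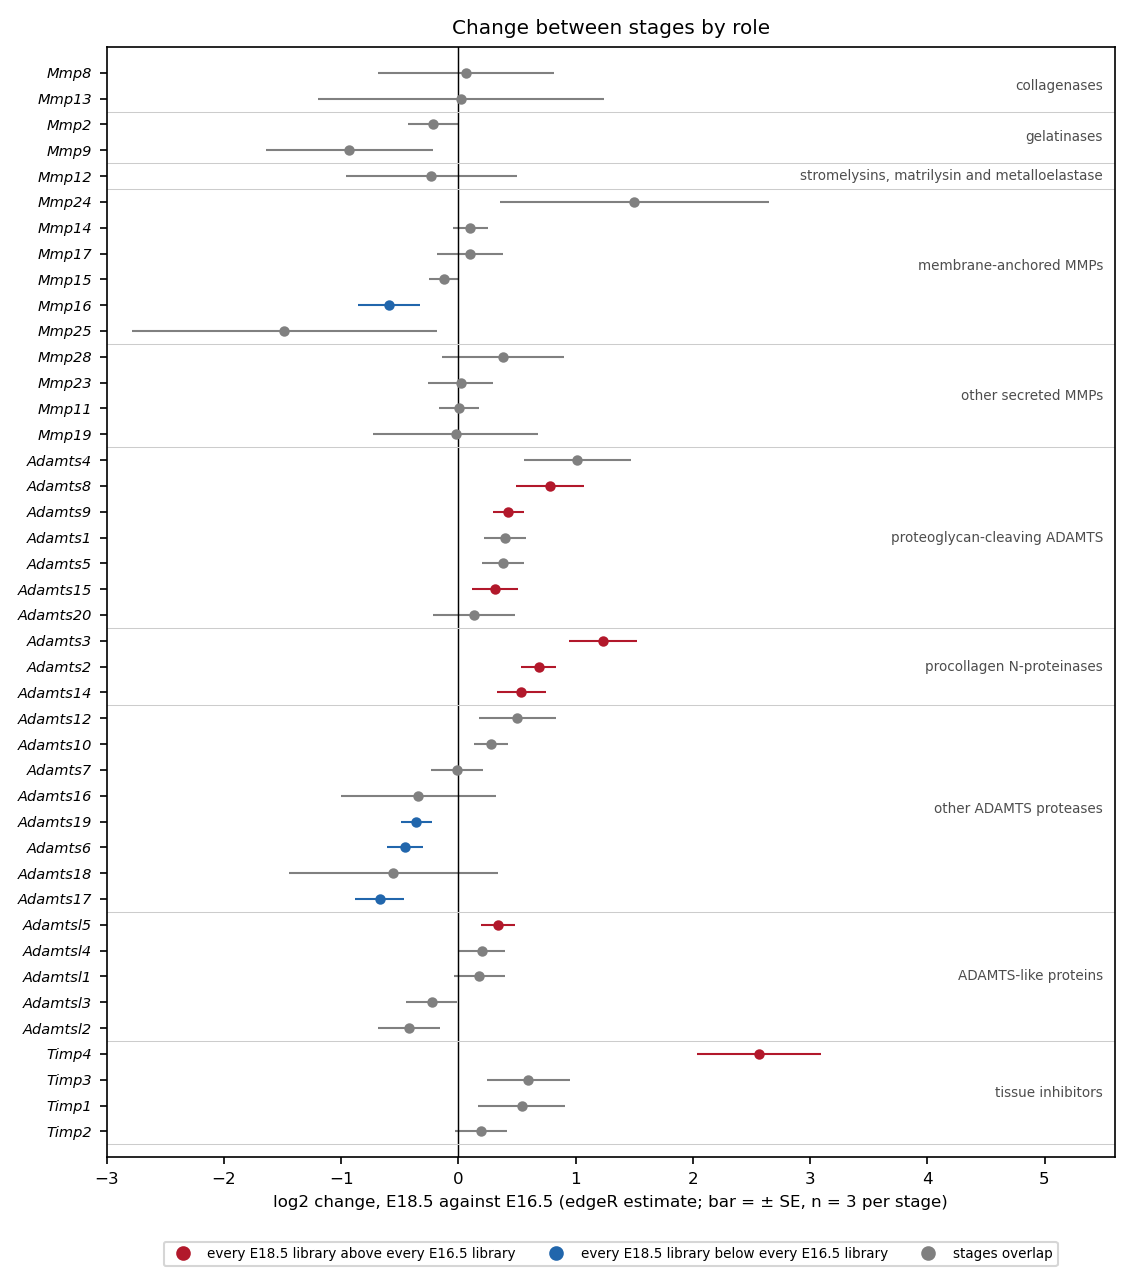
Log2 difference between E18.5 and E16.5 with its standard error (SE) from edgeR for each of the 42 genes, grouped by role, with n = 3 libraries per stage; colours mark genes whose stages do not overlap. The 3 procollagen N-proteinases, the 7 proteoglycan-cleaving ADAMTS genes and the 4 TIMPs lie to the right of 0, and Timp4 lies farthest right at 2.56.

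The procollagen N-proteinases Adamts2, Adamts3 and Adamts14, which remove the amino-terminal propeptide of fibrillar procollagens so that fibrils can assemble, were all higher at E18.5 without overlap between stages. Adamts2 stood at 16.3, 17.1 and 17.4 CPM at E16.5 and at 29.1, 29.8 and 22.9 CPM at E18.5. The lowest E18.5 library was above the highest E16.5 library, and the E16.5 libraries lay close together. Its mean was 17.0 ± 0.570 CPM (SD, n = 3) at E16.5 and 27.2 ± 3.80 CPM (SD, n = 3) at E18.5, a fold of 1.61 and a log2 difference of 0.68 ± 0.15 (SE), with an edgeR adjusted p of 0.185 and a DESeq2 adjusted p of 0.0210. Adamts3, known for its part in lymphatic vessel growth through the processing of VEGF-C, stood at 1.85, 2.86 and 1.94 CPM at E16.5 and at 3.80, 6.04 and 5.79 CPM at E18.5. E18.5 replicate 1 was nearest to the E16.5 libraries, and E16.5 replicate 2 was the highest of its stage. The log2 difference was 1.23 ± 0.29 (SE), a fold of 2.35, with an edgeR adjusted p of 0.222 and a DESeq2 adjusted p of 0.0182. Adamts14, which shares the activity of Adamts2, stood at 10.8, 8.42 and 14.3 CPM at E16.5 and at 16.7, 17.3 and 14.6 CPM at E18.5. E16.5 replicate 3 and E18.5 replicate 3 nearly met, and the log2 difference of 0.54 ± 0.21 (SE) had an edgeR adjusted p of 0.469.

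The DESeq2 calls for Adamts2 and Adamts3 were not made by edgeR or limma under any other setting run. All 3 N-proteinases were higher at E18.5 in each of the 16 settings run, with log2 differences from 0.52 to 0.79 for Adamts2, 0.48 to 1.46 for Adamts3 and 0.37 to 0.75 for Adamts14. Since their stages did not overlap, leaving out a library could not change this sign, and the constant sign adds no further evidence. Their procollagen substrates Col1a1, Col1a2 and Col3a1 had log2 differences of 0.79, 0.62 and 0.55 with edgeR adjusted p of 0.402, 0.364 and 0.447, and none of these passed the test. The summed level of the 7 fibroblast markers moved in the same direction, at 1915 to 2989 CPM at E16.5 and 3161 to 4156 CPM at E18.5. All 7 of these markers were higher, 3 of them at an unadjusted p under 0.05, and none was at 0. Those 3 were Col1a1, Col3a1 and Dpt, while Pdgfra and Lum had log2 differences of 0.06 ± 0.15 and 0.38 ± 0.50 (SE). Over all genes tested, 49.8% were higher and 9.53% reached that p. Without the collagen genes Col1a1 and Col3a1, the remaining 5 summed to 770, 1089 and 874 CPM at E16.5 and to 1021, 1344 and 1096 CPM at E18.5, which overlap between stages. The part of fibroblast content in the N-proteinase levels was not tested.

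The 250 bases upstream of the annotated start of these 3 genes are shown beside those of Timp4, the member with the largest log2 difference, since the windows differ in base composition. They are from the RefSeq table for GRCm38.p6, written 5′ to 3′ on the strand of the gene, with capitals marking the GC box GGGCGG read on either strand. The windows lie at chr11:50601835-50602084 on the plus strand for Adamts2, chr5:89883335-89883584 on the minus strand for Adamts3, chr10:61273420-61273669 on the minus strand for Adamts14 and chr6:115252206-115252455 on the minus strand for Timp4.
Adamts2: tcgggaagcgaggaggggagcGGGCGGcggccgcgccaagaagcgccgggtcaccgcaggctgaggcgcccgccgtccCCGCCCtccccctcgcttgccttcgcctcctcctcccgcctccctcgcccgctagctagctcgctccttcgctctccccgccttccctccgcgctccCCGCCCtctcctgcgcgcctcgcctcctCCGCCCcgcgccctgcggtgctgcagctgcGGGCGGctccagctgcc
Adamts3: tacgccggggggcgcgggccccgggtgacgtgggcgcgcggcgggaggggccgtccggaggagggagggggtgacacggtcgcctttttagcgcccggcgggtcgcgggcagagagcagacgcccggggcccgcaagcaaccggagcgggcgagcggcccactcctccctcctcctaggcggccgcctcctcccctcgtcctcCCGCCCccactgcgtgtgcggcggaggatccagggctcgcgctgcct
Adamts14: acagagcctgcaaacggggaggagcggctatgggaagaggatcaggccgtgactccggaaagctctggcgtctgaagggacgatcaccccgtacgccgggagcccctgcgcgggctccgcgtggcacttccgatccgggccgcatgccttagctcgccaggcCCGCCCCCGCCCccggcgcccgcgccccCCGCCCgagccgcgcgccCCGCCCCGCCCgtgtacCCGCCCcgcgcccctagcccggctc
Timp4: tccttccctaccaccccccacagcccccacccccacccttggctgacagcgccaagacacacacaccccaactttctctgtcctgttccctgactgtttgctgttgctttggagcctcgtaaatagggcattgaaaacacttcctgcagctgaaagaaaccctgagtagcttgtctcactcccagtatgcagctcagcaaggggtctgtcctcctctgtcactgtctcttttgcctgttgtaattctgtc
The Adamts2 window held 5 GC boxes and 34 CpG dinucleotides at 78.0% GC, the Adamts3 window 1 GC box and 35 CpG at 78.0% GC, and the Adamts14 window 6 GC boxes, 1 pair of which shares a base, and 35 CpG at 76.4% GC. The Timp4 window held no GC box, 2 CpG and 53.6% GC.

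Windows were found for 27 of the 42 members, 29 windows in all, among 32851 windows of mouse genes. Adamts4, Adamts5, Adamts6, Adamts7, Adamts8, Adamts10, Adamts15, Adamts16, Adamts19, Adamtsl1, Mmp2, Mmp9, Mmp16, Mmp17 and Mmp19 had none. The members' windows had a median of 63.6% GC and 15 CpG, against 52.4% and 6 over all windows. A GC box stood in 69.0% of the members' windows and in 32.7% of all. The TATA box TATAAA stood in 10.3% against 12.4%, and the members holding it were Adamts1, Adamtsl2 and Mmp13. The AP-1 motif TGANTCA stood in 6.90% against 6.75%, in Mmp12 and Mmp13. The E-box CACGTG stood in 3.45% against 6.02%, in Adamts17. The CCAAT box CCAAT stood in 17.2% against 33.8%, and its members were Adamts17, Adamts20, Mmp14, Timp1 and Timp2. Both strands were searched for each motif, and a match is a run of letters, not a measured binding site.

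The 7 ADAMTS proteases known for cleaving versican, aggrecan or related proteoglycans all had higher means at E18.5, with a median log2 difference of 0.40. Adamts8, Adamts9 and Adamts15 did so without overlap, against 8.45% of all genes, and 2 of the 7 reached an unadjusted p under 0.05, against 9.53% of all genes. The median was 0.23 with limma on log2(FPKM + 1). Adamts9, a versican-cleaving protease needed in heart development, stood at 41.7, 34.8 and 34.3 CPM at E16.5 and at 46.9, 47.2 and 54.8 CPM at E18.5. E18.5 replicate 3 was the highest, and every E18.5 library exceeded every E16.5 library. Its log2 difference was 0.43 ± 0.13 (SE), a fold of 1.34, with an edgeR adjusted p of 0.366. Adamts8 stood at 8.05, 17.2 and 15.0 CPM at E16.5 and at 27.8, 24.0 and 17.7 CPM at E18.5. E16.5 replicate 1 was far below the other libraries, while E16.5 replicate 2 and E18.5 replicate 3 almost met. The log2 difference was 0.78 ± 0.29 (SE) with an edgeR adjusted p of 0.441. Adamts15, which lies 20.1 kb from Adamts8 on chromosome 9 (GRCm38), had a mean of 7.70 ± 1.53 CPM (SD, n = 3) at E16.5, where replicates 2 and 3 were at 8.96 and 8.14 CPM and replicate 1 was the lowest, and 8.99, 10.1 and 9.64 CPM at E18.5. Its E16.5 replicate 2 and E18.5 replicate 1 differed by less than the spread within either stage, and the edgeR adjusted p was 0.638.

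Adamts1 and Adamts5, which lie 53.1 kb apart on chromosome 16 (GRCm38) and both cleave versican, overlapped between stages. Adamts1 was at 19.6, 27.1 and 19.9 CPM at E16.5 and at 25.0, 31.0 and 31.6 CPM at E18.5. Adamts5 was at 8.69, 11.9 and 10.3 CPM at E16.5 and at 14.3, 14.2 and 11.7 CPM at E18.5. For both genes E16.5 replicate 2 was the highest library of its stage and exceeded 1 E18.5 library. The log2 differences were 0.40 ± 0.18 (SE) for Adamts1 and 0.38 ± 0.18 (SE) for Adamts5, with edgeR adjusted p of 0.526 and 0.542. Adamts4, an aggrecanase, had 0.539 to 0.961 CPM at E16.5 and 0.848 to 2.19 CPM at E18.5, a log2 difference of 1.01 ± 0.46 (SE) with an edgeR adjusted p of 0.534. Adamts20, known from the pigment phenotype of its mouse mutant, was at 2.13 to 5.17 CPM at E16.5 and 3.30 to 5.16 CPM at E18.5. Its log2 difference was 0.14 ± 0.35 (SE), and it was -0.14 without E16.5 replicate 2 and -0.07 without E18.5 replicate 3. Vcan, the gene of versican itself, was lower at E18.5 without overlap, at 192 ± 10.2 CPM (SD, n = 3) against 119 ± 11.5 CPM (SD, n = 3), a log2 difference of -0.70 with an edgeR adjusted p of 0.149.

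**Figure D3:**
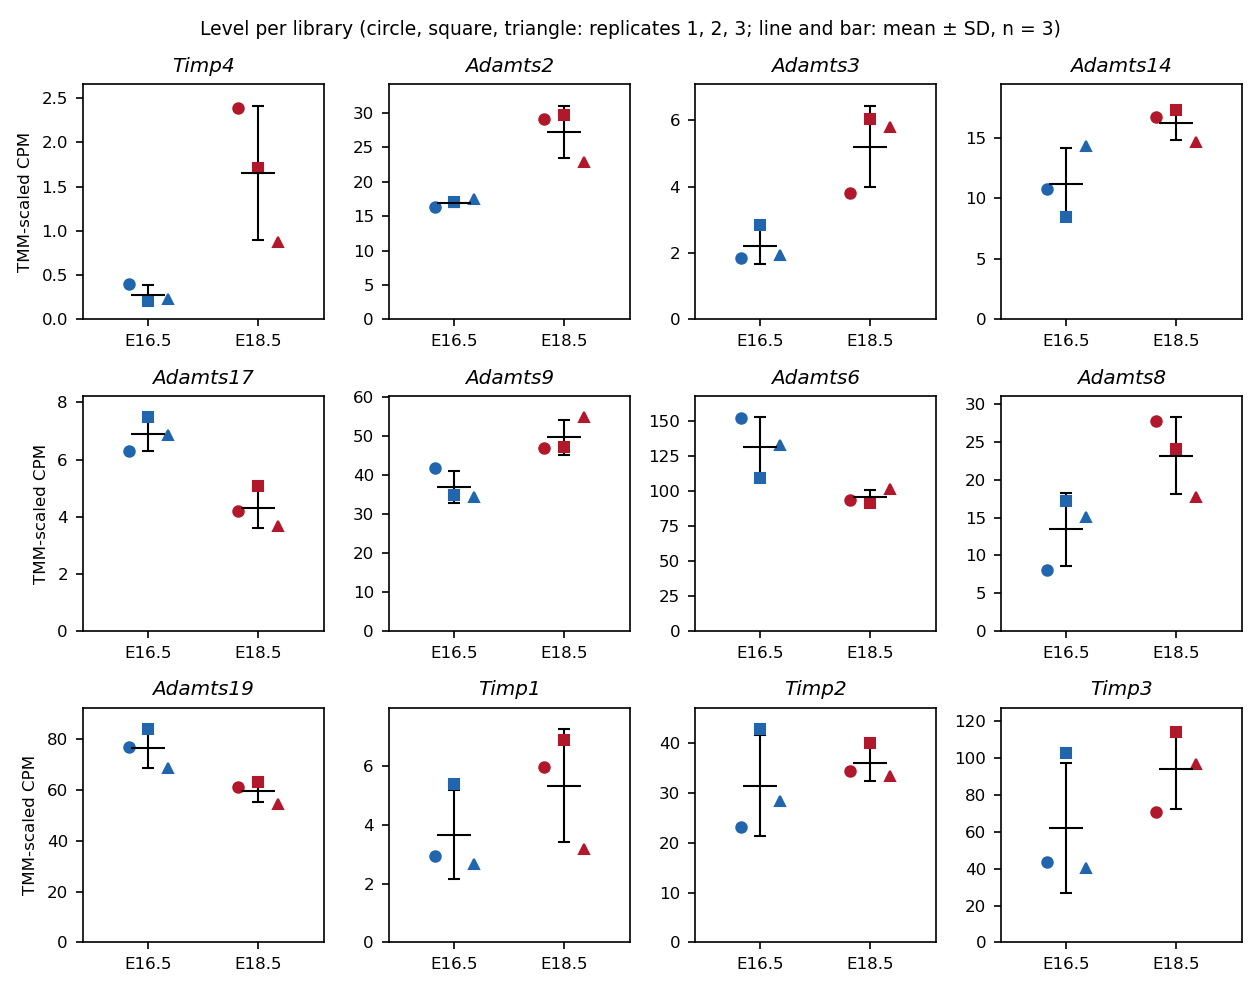
TMM-scaled CPM in each library for the 8 members with the smallest unadjusted p, Adamts14 and the other 3 TIMPs, with circles, squares and triangles for replicates 1, 2 and 3 and with mean ± SD (n = 3) per stage. Timp4, Adamts2, Adamts3, Adamts14, Adamts8 and Adamts9 are higher and Adamts17, Adamts6 and Adamts19 lower in all E18.5 libraries, whereas Timp1, Timp2 and Timp3 overlap.

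Of the other 8 ADAMTS proteases, 6 were lower and 2 higher at E18.5, with a median log2 difference of -0.35. This balance rested in part on single libraries, with 4 of 8 higher and a median of -0.13 without E16.5 replicate 1, 3 higher and -0.18 without E18.5 replicate 3, and 2 higher and -0.23 without E16.5 replicate 2. The median was -0.22 with the mitochondrial share as a term, and limma on log2(FPKM + 1) and log2(FPKM + 0.1) gave -0.01 and -0.07, each with 3 higher. The difference from the proteoglycan-cleaving group was not tested. Adamts6, whose mouse mutants have heart defects, was the most abundant of the members that were lower without overlap. It stood at 152, 109 and 133 CPM at E16.5 and at 93.6, 91.6 and 101 CPM at E18.5. The E18.5 libraries lay close together, and E16.5 replicate 2 was the nearest to them. Its log2 difference was -0.46 ± 0.15 (SE), 1.37-fold lower, with an edgeR adjusted p of 0.388. Over the 15 alternatives, run with edgeR, DESeq2 or limma, it ranged from -0.57 to -0.31, with adjusted p from 0.0529 to 0.901. The values of -0.57 and 0.0529 were those of edgeR without E16.5 replicate 2, a fit that called 1.78% of all genes. Adamts10, its nearest relative and a protease tied to fibrillin microfibrils, was at 109, 96.3 and 124 CPM at E16.5 and at 140, 124 and 136 CPM at E18.5. These ranges met at E16.5 replicate 3 and E18.5 replicate 2, and the log2 difference was 0.28 ± 0.14 (SE) with an edgeR adjusted p of 0.569. The 2 related genes thus had estimates of opposite sign, a difference that was not tested.

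Adamts17, also tied to microfibrils, stood at 6.31, 7.48 and 6.85 CPM at E16.5 and at 4.20, 5.07 and 3.67 CPM at E18.5. All E18.5 libraries were lower, with a log2 difference of -0.67 ± 0.21 (SE), 1.59-fold lower, and an edgeR adjusted p of 0.362. Adamts19, whose loss causes heart valve disease, stood at 76.9, 83.9 and 68.6 CPM at E16.5 and at 61.0, 63.3 and 54.6 CPM at E18.5. The stages did not overlap, and the log2 difference was -0.36 ± 0.13 (SE) with an edgeR adjusted p of 0.444. The valve mesenchyme markers summed to 34.6 to 41.3 CPM at E16.5 and 32.5 to 32.8 CPM at E18.5, lower without overlap. Of 5 tested markers 3 were higher and 2 lower, and none of the 6 was at 0 in all libraries. Sox9 was lower without overlap, at -0.40 ± 0.17 (SE), and Hapln1 was at -0.90 ± 0.51. The higher markers Scx, Prg4 and Cthrc1 were at 0.21 ± 0.20, 0.28 ± 0.46 and 0.21 ± 0.32 (SE). The endocardial markers summed to 128 to 202 CPM and 117 to 150 CPM, which overlap, with all 5 lower and 1 at an unadjusted p under 0.05. Among them, Npr3, Nfatc1 and Tmem100 had log2 differences of only -0.06 ± 0.22, -0.01 ± 0.15 and -0.04 ± 0.16 (SE), and Hapln1 is in both lists. Over all genes tested, 49.8% were higher and 9.53% reached that p. The part of valve and endocardial content in the level of Adamts19 was not tested.

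Adamts7 and Adamts12, which both cleave cartilage oligomeric matrix protein, had log2 differences of -0.01 ± 0.22 and 0.50 ± 0.33 (SE), with edgeR adjusted p of 0.991 and 0.654. Adamts7 ranged from 28.5 to 46.9 CPM over the 6 libraries and Adamts12 from 2.15 to 5.66 CPM. Adamts7 overlaps Tbc1d2b on the opposite strand by 122 exon bases, a gene at 56.9% of its level. Adamts16, which cleaves fibronectin, and Adamts18 were near the limit of detection with 16 to 56 and 4 to 28 counts per library. Their log2 differences of -0.34 ± 0.66 and -0.56 ± 0.89 (SE) were smaller than their errors.

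The ADAMTS-like genes, whose products bind microfibrils and lack protease activity, had 3 of 5 members higher and 2 lower. Adamtsl5 stood at 88.7, 68.1 and 86.0 CPM at E16.5 and at 109, 97.5 and 101 CPM at E18.5. Every E18.5 library was higher, and E16.5 replicate 2 was the lowest of all. The log2 difference was 0.34 ± 0.14 (SE), a fold of 1.27, with an edgeR adjusted p of 0.504. Adamtsl2, mutated in a disorder with thickened heart valves, was at 51.5, 25.8 and 43.0 CPM at E16.5 and at 38.1, 26.2 and 25.2 CPM at E18.5. E16.5 replicate 2 lay among the E18.5 libraries, and the log2 difference was -0.42 ± 0.27 (SE) with all libraries and -0.66 ± 0.19 (SE) without that library, with edgeR adjusted p of 0.638 and 0.0987. The fit without that library called 1.78% of all genes. Over the 15 alternatives, run with edgeR, DESeq2 or limma, the adjusted p ranged from 0.0987 to 0.981. Adamtsl4, at 23.1 to 34.0 CPM and 28.7 to 41.4 CPM, had a log2 difference of 0.20 ± 0.20 (SE). Adamtsl3 and Adamtsl1 had log2 differences of -0.23 ± 0.22 and 0.18 ± 0.22 (SE). Adamtsl1 shares its strand with the overlapping gene Sh3gl2, which was at 21.9% of its level.

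The MMPs showed no common direction, with 8 higher and 7 lower at E18.5, a median log2 difference of 0.00 and none at an unadjusted p under 0.05, which 9.53% of all genes reached. Among the membrane-anchored MMPs, Mmp15 stood at 110, 107 and 108 CPM at E16.5 and at 109, 98.7 and 90.9 CPM at E18.5. The E16.5 libraries lay within a few CPM of each other, E18.5 replicate 1 lay among them, and the log2 difference was -0.12 ± 0.13 (SE) with an edgeR adjusted p of 0.769. Mmp14, the membrane protease that activates Mmp2 together with Timp2, stood at 24.7, 32.7 and 27.4 CPM and at 28.0, 30.6 and 32.3 CPM. The stages overlapped, with a log2 difference of 0.10 ± 0.15 (SE) and an edgeR adjusted p of 0.845. Mmp16 was the only MMP without overlap, at 3.24, 3.76 and 4.24 CPM at E16.5 and at 2.45, 1.98 and 3.03 CPM at E18.5. All its E18.5 libraries were lower, with a log2 difference of -0.59 ± 0.26 (SE) and an edgeR adjusted p of 0.528.

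Mmp17, Mmp24 and Mmp25, the remaining membrane-anchored members, were low. Mmp17 ranged from 1.98 to 3.43 CPM, with a log2 difference of 0.10 ± 0.29 (SE). Mmp24 had 15, 0 and 16 counts at E16.5 and 35, 16 and 39 counts at E18.5, and Mmp25 had 25, 4 and 16 counts at E16.5 and 11, 0 and 5 counts at E18.5. A count of 0 in a library allows up to 3 counts, for counting error only, and the log2 differences of 1.50 and -1.48 had edgeR adjusted p of 0.701 and 0.733. Mmp25 met the minimum summed count mainly through its E16.5 libraries, so its direction is not independent of the choice of members. Mmp24 shares 637 exon bases with BC029722 on the opposite strand, which was at 5359% of its level.

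Of the gelatinases, which cleave denatured collagen and basement membrane collagen, Mmp2 was abundant and Mmp9 scarce. Mmp2 stood at 25.1, 42.9 and 26.2 CPM at E16.5 and at 25.1, 27.3 and 28.7 CPM at E18.5. E16.5 replicate 2 alone was high and the other 5 libraries lay close together. The log2 difference was -0.22 ± 0.21 (SE) with an edgeR adjusted p of 0.762, and 0.07 ± 0.12 (SE) without E16.5 replicate 2. Mmp9 stood at 0.829, 0.296 and 0.277 CPM at E16.5 and at 0.180, 0.327 and 0.223 CPM at E18.5. Its E16.5 replicate 1 was high on 52 counts, the others overlapped, and the log2 difference was -0.93 ± 0.71 (SE) with an edgeR adjusted p of 0.701.

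The collagenases Mmp8 and Mmp13 and the elastase Mmp12 were near the limit of detection, with 8 to 55, 0 to 30 and 8 to 30 counts per library. Their log2 differences were 0.07 ± 0.75, 0.02 ± 1.22 and -0.23 ± 0.73 (SE), so differences of this size were not detectable at this depth. Mmp8, Mmp9 and Mmp25 are typical of neutrophils and Mmp12 of macrophages. The 8 neutrophil markers summed to 3.81 to 8.71 CPM at E16.5 and 5.37 to 11.5 CPM at E18.5, and the 6 macrophage markers to 31.8 to 41.5 CPM and 33.6 to 38.8 CPM. Both marker sums overlapped between stages, and no listed marker was at 0 in all libraries. Mmp13, Mmp12 and Mmp8 lie in a cluster on chromosome 9 (GRCm38), with gaps of 61.0 kb and 189 kb.

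Of the other MMPs, Mmp23, a short MMP held in the membrane until it is cleaved, stood at 39.6, 17.8 and 32.2 CPM at E16.5 and at 36.2, 29.6 and 25.0 CPM at E18.5. E16.5 replicate 2 was the lowest, the stages overlapped, and the log2 difference was 0.02 ± 0.28 (SE) with an edgeR adjusted p of 0.987. Without E16.5 replicate 2 it was -0.24. Mmp11, which is activated inside the cell by furin, ranged from 9.58 to 12.3 CPM with a log2 difference of 0.00 ± 0.17 (SE). It shares 155 exon bases with Chchd10 on the opposite strand, a gene at 2850% of its level. Mmp28 and Mmp19 varied widely within stages, from 2.90 to 10.2 CPM and from 0.408 to 4.59 CPM. Both overlap a gene on the opposite strand, 1700020L24Rik at 84.1% and Tmem198b at 374% of their level, and their log2 differences were 0.38 ± 0.52 and -0.02 ± 0.71 (SE).

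All 4 TIMPs had higher means at E18.5, with a median log2 difference of 0.57, and this sign held for each of them in the 16 settings run. The size depended on single libraries, with a median of 0.35 without E16.5 replicate 3, 0.37 without E18.5 replicate 2 and 1.05 without E16.5 replicate 2. Timp2 was at 0.00 ± 0.20 (SE) without E16.5 replicate 1. Timp4, the TIMP known for its high level in adult heart, differed most of all members. It had 25, 17 and 16 counts at E16.5 and 159, 120 and 59 counts at E18.5, or 0.399, 0.209 and 0.233 CPM and 2.39, 1.71 and 0.878 CPM. Every E18.5 library exceeded the highest E16.5 library, and E18.5 replicate 3 was the lowest of its stage. The mean was 0.280 ± 0.103 CPM (SD, n = 3) at E16.5 and 1.66 ± 0.755 CPM (SD, n = 3) at E18.5, a fold of 5.90 and a log2 difference of 2.56 ± 0.53 (SE). The edgeR adjusted p was 0.164, the DESeq2 adjusted p 0.00212, and the edgeR adjusted p with the mitochondrial share as a term 0.0493, a fit that called 0.922% of all genes and no other member. Even at E18.5 Timp4 was scarce, at 0.148 to 0.345 FPKM, against 3.62 to 14.0 FPKM for the other TIMPs.

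Timp4 lies within Syn2 on the opposite strand, with 90 exon bases in common. Syn2 was at 330% of the level of Timp4 and had 2.86 ± 0.915 CPM (SD, n = 3) at E16.5 and 3.54 ± 0.786 CPM (SD, n = 3) at E18.5, a log2 difference of 0.31 with an edgeR adjusted p of 0.764. Use of the strand in counting is not stated in the sources used, so the Timp4 count is uncertain to that extent. Timp1 and Timp3 also lie within synapsin genes on the opposite strand, Timp1 within Syn1 with no shared exon base and Timp3 within Syn3, which was at 0.553% of its level.

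Timp3, which is bound to the matrix and inhibits ADAMTS proteases as well as MMPs, stood at 43.5, 103 and 40.2 CPM at E16.5 and at 70.9, 114 and 97.0 CPM at E18.5. E16.5 replicate 2 was as high as the E18.5 libraries, and the other E16.5 libraries were lower than all of them. The log2 difference was 0.60 ± 0.36 (SE) with an edgeR adjusted p of 0.624. Without E16.5 replicate 2 it was 1.17 ± 0.20 (SE) with an edgeR adjusted p of 0.0425, in a fit that called 1.78% of all genes and no other member. Timp2, which both inhibits Mmp2 and helps activate it, stood at 23.2, 42.9 and 28.4 CPM and at 34.4, 40.1 and 33.5 CPM. Timp1, an inducible and soluble inhibitor encoded on the X chromosome, stood at 2.93, 5.40 and 2.67 CPM and at 5.96, 6.87 and 3.17 CPM. In both genes E16.5 replicate 2 lay among or above the E18.5 libraries. The log2 differences were 0.19 ± 0.22 (SE) for Timp2 and 0.54 ± 0.37 (SE) for Timp1, with edgeR adjusted p of 0.798 and 0.674, and 0.48 ± 0.14 and 0.93 ± 0.35 (SE) without E16.5 replicate 2, with 0.103 and 0.165.

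**Figure D4:**
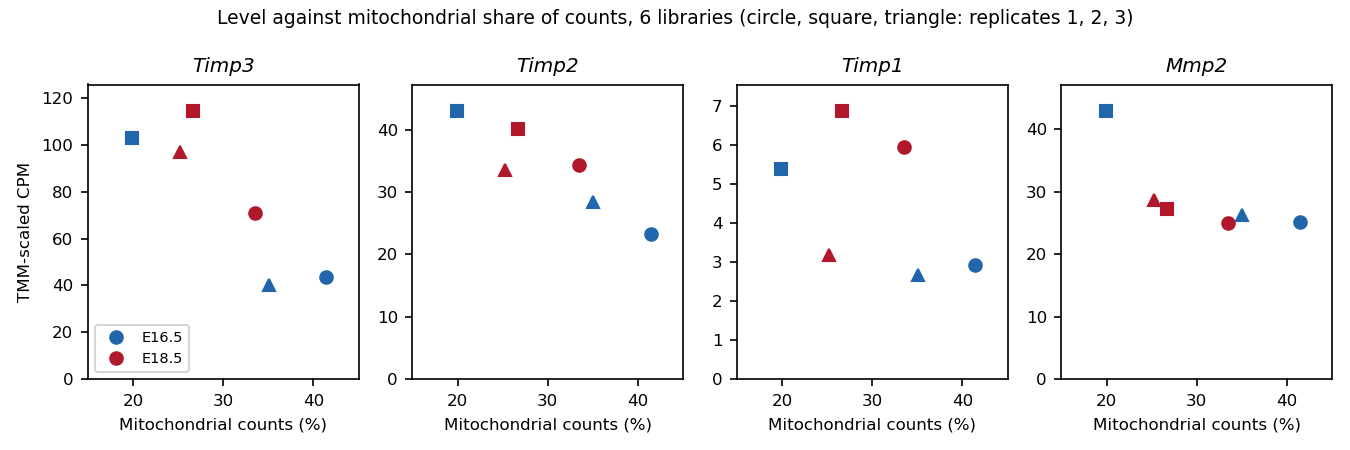
TMM-scaled CPM of Timp3, Timp2, Timp1 and Mmp2 against the mitochondrial share of counts (percent) in the 6 libraries, blue for E16.5 and red for E18.5, with circles, squares and triangles for replicates 1, 2 and 3. E16.5 replicate 2, with the lowest share at 19.9%, has 103 CPM of Timp3 and 42.9 CPM of Mmp2, and E16.5 replicate 1, with the highest share at 41.4%, has 43.5 and 25.1 CPM.

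At E16.5 the levels of these TIMPs were highest in replicate 2, the library with the lowest mitochondrial share. The 3 libraries with the lowest mitochondrial share held the 3 highest levels of Timp3, and the 2 E16.5 libraries with the highest share held the lowest levels of Timp3, Timp2 and Timp1. Both of those libraries are of E16.5, so share and stage are partly confounded. Within E18.5, replicate 3 had the lowest share, at 25.2%, and also the lowest Timp2 and Timp1, at 33.5 and 3.17 CPM. With the mitochondrial share as a term, the log2 difference between stages was 0.47 ± 0.16 (SE) for Timp3, 0.11 ± 0.12 for Timp2 and 0.50 ± 0.34 for Timp1, and -0.31 ± 0.10 for Mmp2, with edgeR adjusted p of 0.221, 0.734, 0.549 and 0.230. What sets the mitochondrial share was not tested. Without E16.5 replicate 2, 21 of the 42 members had no overlap between stages, against 44.0% of all genes.

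The summed level of MMP transcripts per TIMP transcript had a higher mean at E16.5 and overlapped between stages. The sum over the 15 MMPs was 41.9, 59.3 and 44.8 FPKM at E16.5 and 48.5, 52.0 and 48.5 FPKM at E18.5. The sum over the 4 TIMPs was 10.8, 33.4 and 12.8 FPKM and 21.0, 32.3 and 24.6 FPKM. When summed as TMM-scaled CPM, the MMPs were highest in E18.5 replicate 1, with 231 CPM, while E16.5 replicate 2 had 227 CPM. The rank of E16.5 replicate 2 in the MMP sum therefore depended on the scaling. In FPKM the MMP sum was highest in that library, and the TIMP sum was lowest in E16.5 replicates 1 and 3. Their ratio was 3.88, 1.78 and 3.50 at E16.5, with a mean of 3.05 ± 1.12 (SD, n = 3), and 2.31, 1.61 and 1.97 at E18.5, with a mean of 1.96 ± 0.348 (SD, n = 3). E16.5 replicate 2 fell among the E18.5 libraries, and the other E16.5 libraries lay above them. Without that library the E16.5 mean was 3.69. The ratio is one of transcripts, and no protein or activity was measured.

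**Figure D5:**
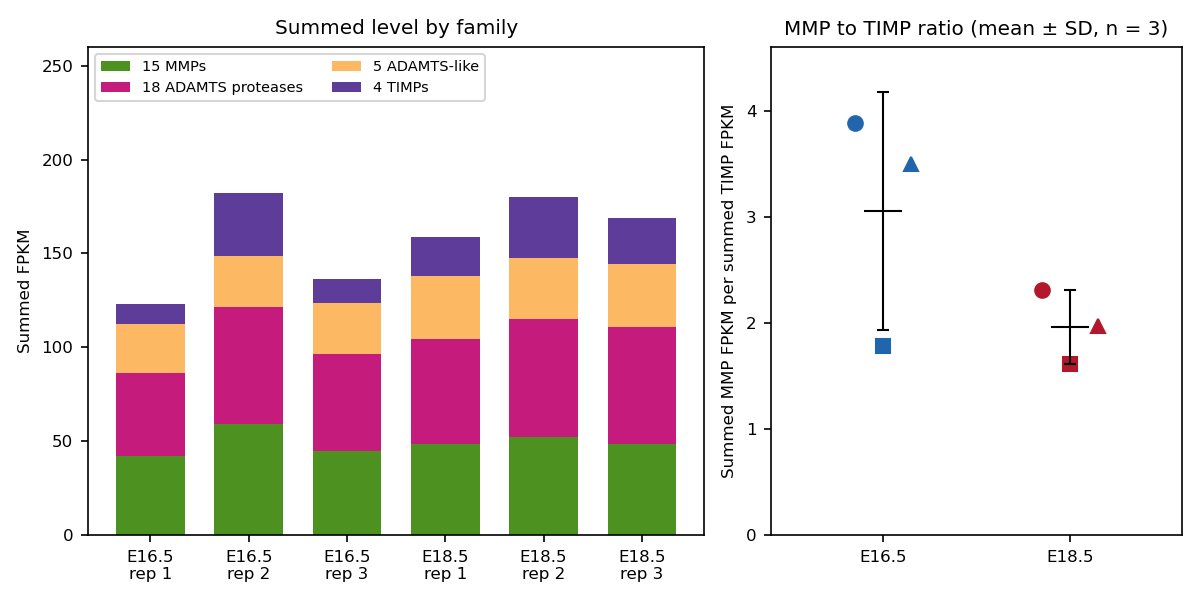
Left, FPKM summed over the 15 MMPs, 18 ADAMTS proteases, 5 ADAMTS-like genes and 4 TIMPs in each library; right, the ratio of the MMP sum to the TIMP sum per library with mean ± SD (n = 3) per stage. The TIMP sum is 10.8 and 12.8 FPKM in E16.5 replicates 1 and 3 and at least 21.0 FPKM in the other 4 libraries, and the ratios of the stages overlap at E16.5 replicate 2.

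Genes that control these proteases were more often higher than lower at E18.5, and none passed the edgeR test at an adjusted p under 0.05. Of 28 genes for activation and surface control, 23 were higher and 5 lower, with 6 higher genes and 1 lower gene reaching an unadjusted p under 0.05 and a median log2 difference of 0.31, beside 49.8% higher and 9.53% at that p over all genes tested. S100a10, which with annexin A2 gathers plasminogen activation at the cell surface, stood at 54.9 ± 10.5 CPM (SD, n = 3) at E16.5 and 107 ± 9.07 CPM (SD, n = 3) at E18.5, with a log2 difference of 0.96 and an edgeR adjusted p of 0.119. Papln, an ADAMTS-related inhibitor of procollagen N-proteinase activity, had a log2 difference of 1.33 ± 0.36 (SE) with an edgeR adjusted p of 0.296. Thbs2, which clears Mmp2 from the cell surface, had 0.50, and the proprotein convertase Pcsk5 had -0.49, with edgeR adjusted p of 0.383 and 0.397. Reck, a membrane inhibitor of MMPs, had 0.22, and Furin, which cleaves the propeptide of membrane-anchored MMPs and ADAMTS proteases, had 0.07.

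Among 21 tested genes of other matrix proteases and their cofactors, 15 were higher and 6 lower, with 3 higher genes and no lower gene reaching an unadjusted p under 0.05 and a median log2 difference of 0.24. Those with the smallest p were the serine protease Htra3 at 0.76, the membrane proteases Adam9 at 0.59 and Adam19 at 0.46, and Htra1 at 0.38, with edgeR adjusted p of 0.359, 0.383, 0.503 and 0.565. Bmp1, which removes the other, carboxy-terminal propeptide of procollagens, stood at 183 ± 9.11 CPM (SD, n = 3) and 210 ± 6.15 CPM (SD, n = 3), a log2 difference of 0.20 with an edgeR adjusted p of 0.633. Its stages did not overlap.

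Of 31 matrix substrates, 24 were higher and 7 lower, with 4 higher genes and 3 lower genes reaching an unadjusted p under 0.05 and a median log2 difference of 0.31. Besides Vcan and Col1a2, given above, the genes with the smallest p were Col2a1, a collagen of cartilage and valves, at -1.90 ± 0.29 (SE) with an edgeR adjusted p of 0.0734, and Vwf, the substrate of Adamts13, at 0.41 ± 0.14 (SE) with 0.388. Col2a1 stood at 7.83 ± 0.992 CPM (SD, n = 3) at E16.5 and 2.10 ± 0.680 CPM (SD, n = 3) at E18.5 without overlap. The 4 cartilage markers in the table, Col2a1 among them, summed to 12.4 to 16.8 CPM at E16.5 and 6.90 to 11.2 CPM at E18.5. Of the 3 tested, Col2a1 and Col9a1 were lower, both at an unadjusted p under 0.05, Acan had a log2 difference of 0.60 ± 0.61 (SE), and Matn3 was not tested. Markers of smooth muscle and pericytes and of the epicardium were also higher without overlap, at 312 to 417 against 438 to 492 CPM and 146 to 155 against 192 to 251 CPM. Of these lists, 4 of 6 and 6 of 7 genes were higher, with 2 and 4 at an unadjusted p under 0.05, and none was at 0. Over all genes tested, 49.8% were higher and 9.53% reached that p. The epicardial gene Krt19 passed the edgeR test, with a log2 difference of 1.23 ± 0.14 (SE) and an adjusted p of 0.0219. The part of these cells in the levels of the proteases and inhibitors was not tested.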

How the data were processed

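For 31529 genes and 6 libraries, the authors deposited estimated counts beside FPKM in 1 table, per the file headers. The deposited estimated counts are whole numbers, so the rounding step before the fits left them unchanged. FPKM is by definition scaled to the length of the transcript and to the fragments of a library. The file headers give only its name and not which fragments were counted. Named in the submitters' processing notes are HISAT2 2.0.4, StringTie 1.3.4d, cutadapt 1.9, UMI-tools and the build mm9, without a role for each. Per the labels' protocols the libraries keep strand and carry molecular identifiers, but whether counting used either is not stated in the sources used.

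The comparison used edgeR 4.0.16 under R 4.3.3 (glmQLFit and glmQLFTest, two-sided, TMM scaling, filterByExpr, stage as the only term), which tested 19959 genes, with Benjamini-Hochberg adjustment over all of them and a threshold of 0.05. The SE was derived from the log2 difference and its F statistic. The common biological coefficient of variation was 34.3%. The fit code was run on simulated counts with a common dispersion and changes larger than those of most members. That run does not measure power or error in these data. Alternatives were DESeq2 1.42.0, limma 3.58.1 on log2(FPKM + 1) and log2(FPKM + 0.1), another scaling, no filter, mitochondrial genes left out, the mitochondrial share, Xist state or replicate number as a term, and each library left out.

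The members, roles, lists and alternatives were chosen with earlier results of these data known. Every member is named in its role group. Values in each library are given for the 8 members with the smallest p, the 8 with the highest mean FPKM, the TIMPs, Mmp2, Mmp9, Mmp14, Adamts1, Adamts2, Adamts5 and Adamts9. Those of Adamts14, Adamts15, Mmp16, Adamtsl2, Mmp24 and Mmp25 were added after they were seen. Of each pathway list the 4 genes with the smallest p are named, and Reck, Furin, Bmp1, Col1a1 and Col3a1 were added after their values were seen. Positions and overlaps are from GENCODE M21 (GRCm38) by Ensembl identifier. Deposited coordinates, which are of another build, are not printed. BLAST 2.17.0 was used to find matches of at least 100 bases at 95% identity in transcripts of other genes. The longest was 1733 bases, between Timp3 and the overlapping gene Syn3. To a gene that does not overlap it was 148 bases, between Mmp17 and Nom1. The share of each transcript covered was not computed. One result on an overlapping gene is not reported here.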

Additional observations from a re-analysis of the deposited data

How the results depend on the processing

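The number of genes called between stages was 30 in the reported fit, 343 with DESeq2, 10 and 18 with limma on log2(FPKM + 1) and log2(FPKM + 0.1), 14 with Xist state as a term, 184 with the mitochondrial share as a term, and 8 to 371 when 1 library was left out, with 371 without E16.5 replicate 2. It was 26 with another scaling in edgeR, 25 without a filter and 26 without mitochondrial genes. The number of members called was 3 with DESeq2, 1 with the mitochondrial share as a term and 0 to 1 when 1 library was left out, with Timp3 the member called without E16.5 replicate 2. It was 0 in the other alternatives. The members without overlap numbered 13 to 21 when 1 library was left out, with 21 without E16.5 replicate 2, where fewer libraries must be separated. That is 31.0% to 50.0% of members, against 22.4% to 44.0% of all genes. The ratio of summed MMP to summed TIMP levels was 1.93 at E16.5 and 1.27 at E18.5 without Mmp15, 2.62 at E16.5 and 1.61 at E18.5 in TMM-scaled CPM, and 2.64 to 3.69 at E16.5 and 1.79 to 2.14 at E18.5 when 1 library was left out.

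The sources used do not say whether replicate numbers pair the libraries. The deviations of same-numbered libraries from their stage means correlated at 0.10, 0.19 and -0.07, and not every library correlated best with its own number. With 3 libraries per stage these values cannot exclude a pairing. With the replicate number as a block, 43 genes and 0 members were called. In that edgeR fit 2545 genes and 15 members had an unadjusted p under 0.05, against 1903 and 10 in the reported fit. Of the 42 members, 31 kept the sign of their log2 difference in all 15 alternatives, and the other 11 had 33 values of the opposite sign, none of them called. These were Adamts7, Adamts16, Adamts20, Mmp2, Mmp8, Mmp11, Mmp12, Mmp13, Mmp17, Mmp19 and Mmp23. Depth limits Adamts16, Adamts18, Mmp8, Mmp9, Mmp12, Mmp13, Mmp24 and Mmp25, which had under 200 counts over all libraries.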
